A study of Mus musculus with 198 samples.

Results

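Skin from 12 control mice was compared with each of 8 other tissues taken from the same animals, by RNA sequencing of whole tissue. The 12 control skins were 12 of the 198 libraries of the series, which covers 9 tissues of C57BL/6 mice given a control antibody or an antibody to PAPP-A (labelled aPAPPA) for 17 weeks. PAPP-A is a secreted protease that cleaves IGF-binding proteins and so releases IGF-1. The other control tissues were bone marrow, gonadal fat, heart, kidney, liver, lung, spleen and subscapular fat. A skin gene was defined as one whose count was higher in control skin than in every one of the 8 tissues, in edgeR quasi-likelihood tests paired by mouse with a Benjamini-Hochberg adjusted p under 0.05 in each. Of 8059 genes tested against all 8 tissues, 853 met this definition, in a table of 56332 genes. The 9 usable skins (5 male and 4 female) of 10 aPAPPA mice, which the definition did not use, served as a second set of animals. There were 6 male and 6 female control mice, and every mouse was of the same strain and kept for the same 17 weeks. The sources used here give neither the control antibody, nor the age of the animals, nor the body site of the skin.

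Skin is a layered tissue. Basal keratinocytes divide on a basement membrane, move outward as suprabasal cells that switch keratins, and end as flat cornified cells sealed by crosslinked protein, desmosomes and lamellar lipid. Hair follicles and sebaceous glands grow from the same epithelium, the follicle in repeated cycles of growth and rest, and the dermis beneath is built of collagen made by fibroblasts. Whole skin can therefore carry RNA of all these compartments, and in bulk RNA fewer cells of a type and less RNA per cell cannot be told apart.

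The libraries were shallow for most genes. Control skins held 4138419 to 11575592 counts, but 9 ribosomal, mitochondrial and other abundant features took 69.2% to 98.3% of them, which left 201092 to 1815492 counts (median 708953) for all other genes. The skin of mouse 61 was the shallowest and had 4451 genes with 10 or more counts, against 8283 to 13909 genes in the other control skins. The lung of mouse 68 and the heart of mouse 22 were left out, because the markers of the labelled tissue were low in them. The lung of mouse 68 had 0.158 CPM (counts scaled to a common library size) of the surfactant gene Sftpc, against 358 to 1295 CPM in the other control lungs. The heart of mouse 22 had 307 CPM of the cardiac myosin gene Myh6, against 2310 to 4546 CPM in the other control hearts. The comparisons with heart and lung therefore rest on 11 pairs, and the others on 12. Every control skin carried its defining markers: the basal keratin gene Krt5 lay between 210 and 420 CPM. The markers of hepatocytes, B cells, lung, kidney and heart had no member tested. Of these, 5 hepatocyte genes summed to 73.9 CPM in the skin of mouse 61 and 59.9 CPM in that of mouse 55, against a median of 2.76 CPM over the skins, and their part in the results was not tested.

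Set against single tissues, skin differed at most of the genes tested. It was higher than bone marrow at 4325 of 11269 genes (38.4%), than gonadal fat at 3742 (34.4%), than heart at 3889 (36%) and than kidney at 3858 (34.7%). It was higher than liver at 3510 genes (37.3%), than lung at 3958 (33%), than spleen at 3269 (31%) and than subscapular fat at 3384 (31.6%). Genes lower in skin numbered between 3370, against spleen, and 4335, against bone marrow. TMM scaling centres the fold changes, with medians between -0.02 and 0.03 on the log2 scale, so the balance of higher and lower calls is not a result. Many of these differences were small: genes at least 2-fold higher in skin numbered 1561 (gonadal fat) to 2307 (bone marrow), and genes at least 2-fold lower 1579 (spleen) to 2580 (heart), the more numerous in every comparison but that with spleen. Skin had the lowest median usable depth of the 9 control tissues, 708953 counts, against 962012 in spleen, the next lowest, and 1771720 in heart, the highest. The part of depth in the number of 2-fold lower genes was not tested. All 8 comparisons use the same skins, so they are not independent of each other.

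**Figure D1:**
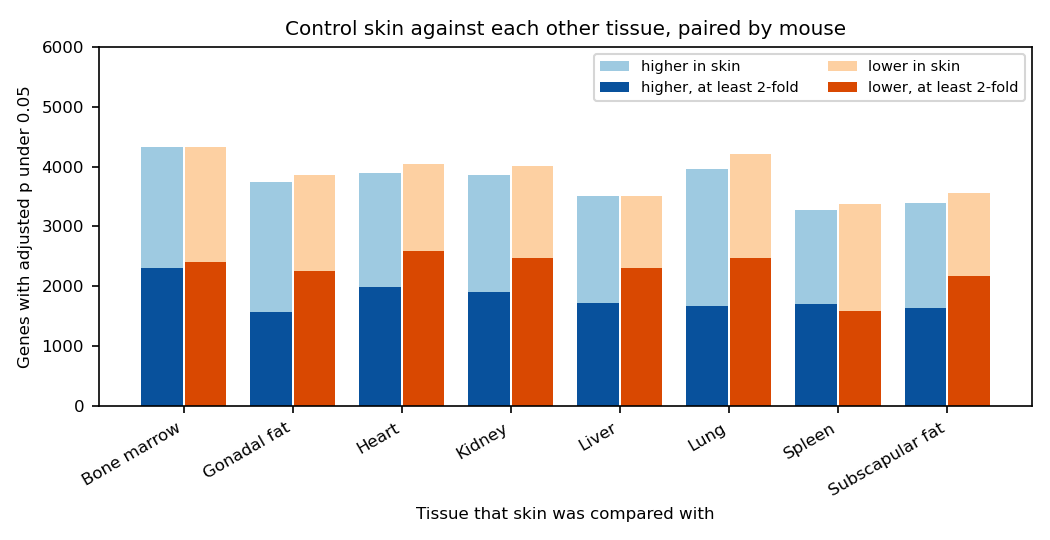
Number of genes with an adjusted p under 0.05 (y axis) in control skin against each of 8 control tissues (x axis); blue bars count genes higher in skin and orange bars genes lower in skin, with the dark part at least 2-fold. Counts run from 3269 higher and 3370 lower against spleen to 4325 higher and 4335 lower against bone marrow.

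Higher than in all 8 tissues were the 853 skin genes, 10.6% of the 8059 genes tested, and lower than in all 8 were 313 genes (3.88%). The smallest of a skin gene's 8 log2 fold changes is above 0 by the definition, and its median was 0.81. Over all 8059 genes that median was -0.70, a reference for the gene lists below and not a test of the definition. At least 2-fold higher than in every tissue were 346 skin genes, at least 4-fold 190 and at least 16-fold 106. The tissue with the highest level of a skin gene other than skin itself was most often lung (187 genes, 21.9%) and then bone marrow (127 genes, 14.9%). By the smallest log2 fold change it was lung (182 genes), then spleen (163) and bone marrow (113). The same shares over all tested genes are not given here, so these counts do not show which tissue is nearest to skin. Of the 853, 827 are annotated as protein coding. In data simulated with 1 spread for all genes (squared coefficient of variation 0.16) and no mouse effect, the same rule was tried. It recovered 100% of genes 4-fold higher in skin and 10% of those 2-fold higher. Small differences may go uncalled, but real genes differ in spread, so these rates are not the sensitivity of the real test.

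Of the 25 genes farthest above every other tissue among those with an official symbol and a mean of at least 1 CPM in skin, 6 are on the list of suprabasal genes, 9 on that of the cornified envelope, 3 on the basal list and 2 on the desmosome list, all lists chosen with earlier results known. Krt1, one of the paired keratins of suprabasal cells, lies at chr15:101845426-101850794 and ranged over 94.8, 287 and 2095 CPM (lowest, median and highest) in control skins, with a mean of 620 ± 712 CPM (SD, n = 12). Its highest level elsewhere was 0.121 ± 0.158 CPM in subscapular fat (n = 12), and its smallest log2 fold change was 12.16 ± 0.55 (SE), with a largest adjusted p of 2.07e-07 over the 8 edgeR quasi-likelihood tests. The lowest skin was far above the highest subscapular fat library, which had 0.401 CPM. Its partner Krt10, at chr11:99385254-99389364, had 208, 510 and 1565 CPM in skin and 0.589 ± 0.351 CPM in kidney, the next highest tissue, a log2 fold change of 10.37 ± 0.38. Krt2, a keratin of the upper suprabasal layers, had 266, 991 and 3759 CPM in skin and 0.402 ± 0.25 CPM in liver, 11.60 ± 0.40 apart on the log2 scale. Per kilobase of exon, Krt2 (mean 493.2 CPM per kb) and Krt10 (385 CPM per kb) were the highest protein-coding skin genes, followed by Krt14 at 198, Calm4 at 182, Krt1 at 140 and Krt5 at 133 CPM per kb. Krt6a, a stress-inducible keratin that the follicle also uses, had 19.6, 26.2 and 161 CPM in skin and a smallest log2 fold change of 8.76 ± 0.49. Lypd3, a membrane protein of suprabasal cells, had 9.67, 23.4 and 85 CPM in skin and one of 8.91 ± 0.46. Per length, the ranges over mice overlapped, from 102 to 1438 CPM per kb for Krt2 and from 98.6 to 740 for Krt10.

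**Figure D2:**
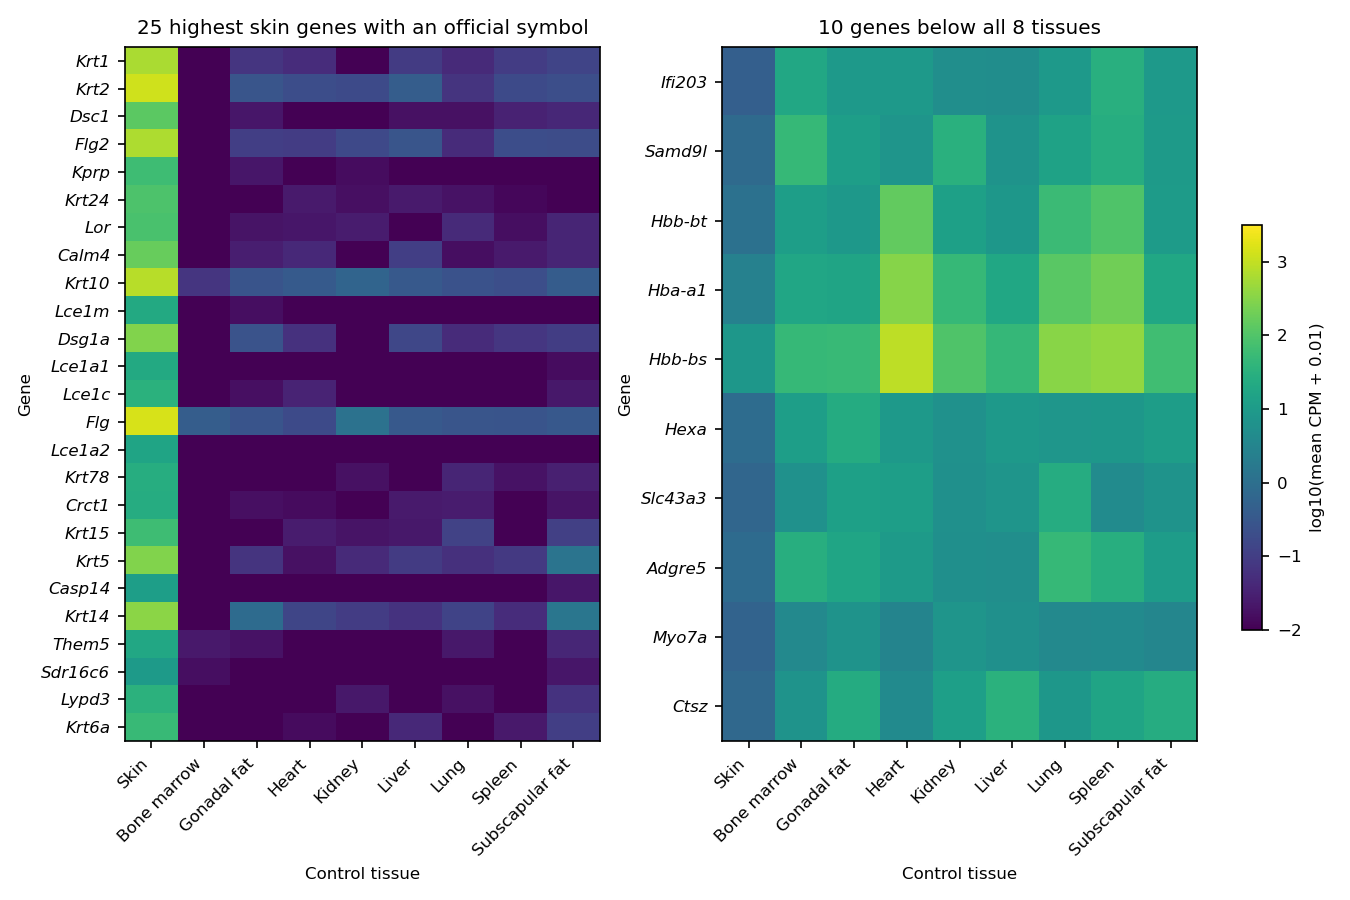
Mean level of the 25 skin genes with an official symbol that have the largest smallest fold change (left) and of 10 genes below all 8 tissues (right) in 9 control tissues, as log10 of mean CPM plus 0.01, with 11 or 12 libraries a tissue. The skin column is the brightest for every gene on the left, led by Krt1 with a smallest log2 fold change of 12.16, and the darkest for every gene on the right.

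All 12 tested members of a list of 14 suprabasal genes were skin genes (against 10.6% of all genes), with a median smallest log2 fold change of 8.80. Members nearly absent elsewhere passed the low count filter through their level in skin, so this count supports nothing by itself. Without the filter 14 of 14 were called, in a fit that called 5.2% of all genes. The list includes Krtdap, Sbsn and Dmkn, secreted proteins of differentiating keratinocytes encoded side by side on chromosome 7, and the calmodulin-like genes Calm4 and Calml3. Calm4 had 42.5, 116 and 333 CPM in skin and 0.0973 ± 0.172 CPM in liver, a log2 fold change of 10.64 ± 0.38. Krtdap had a smallest log2 fold change of 8.69 ± 0.46, Dmkn of 6.75 ± 0.41 and Sbsn of 5.45 ± 0.26. The summed level of the list was 976 to 7264 CPM in skin (median 2253), and its medians in the other tissues lay between 1.1 and 11.7 CPM, the last in lung. The basal list was less sharply set off: 9 of 12 members were skin genes (against 10.6% of all genes), with a median of 3.13. Krt14 had 215, 352 and 478 CPM in skin and 1.44 ± 1.85 CPM in subscapular fat, and Krt5 had 210, 295 and 420 CPM in skin and 1.29 ± 1.79 CPM in subscapular fat. The smallest log2 fold changes of these paired basal keratins were 9.06 ± 0.45 for Krt14, against gonadal fat, and 9.23 ± 0.98 for Krt5, against subscapular fat. The fitted values exceed the ratios of pooled CPM in skin over subscapular fat, which were 263 for Krt14 and 235 for Krt5. Krt15, a keratin of basal cells and the follicle bulge, had 13.1, 76.7 and 110 CPM in skin and a smallest log2 fold change of 9.25 ± 0.51, against lung.

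Parts of the basal attachment apparatus were shared with other tissues. The hemidesmosome genes Col17a1 (8.46 ± 0.24) and Itgb4 (4.35 ± 0.20) were skin genes by wide margins of smallest log2 fold change, and Itga6, the integrin chain that pairs with Itgb4, by 1.09 ± 0.12. Lamb3 and Lama3, laminin chains of the basement membrane, were close to their lung levels. Lamb3 had 16.7 ± 4.98 CPM in skin and 12.5 ± 3.73 CPM in lung, and passed at 0.51 ± 0.14 on the log2 scale. Lama3 had 35.5 ± 11.1 CPM in skin and 36.8 ± 8.73 CPM in lung, a log2 difference of 0.03 ± 0.16 that did not pass (adjusted p = 0.873, edgeR quasi-likelihood) and that was below 0 under DESeq2, RLE scaling, no filter, in females and without mouse 61. Dst, a cytoskeletal linker, was not a skin gene either, with 236 ± 61.5 CPM in skin and 372 ± 41.7 CPM in heart.

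The cornified envelope list named 48 genes, of which 16 passed the low count filter in all 8 comparisons; all 16 were skin genes, with a median smallest log2 fold change of 9.52 (8.64 with groups at 0 counts held at their bound). Genes nearly absent elsewhere passed the filter through their level in skin, here and in the other lists, so such counts support nothing by themselves. Without the filter 42 of 46 tested were called, and without mouse 61, 27 of 27, in fits that called 5.2% and 12.2% of all genes. The main fits called 10.6%. Lor encodes loricrin, the main envelope protein, and had 40.1, 85.3 and 116 CPM in skin and 0.0363 ± 0.0454 CPM in lung (n = 11), 10.94 ± 0.27 apart on the log2 scale. Flg and Flg2 encode filaggrins, which bundle keratin and are broken down to natural moisturising factors. Flg had 319, 837 and 3757 CPM in skin and 1.18 ± 0.506 CPM in kidney, a log2 fold change of 9.91 ± 0.42. Flg2 had 237, 695 and 1037 CPM in skin and 0.276 ± 0.201 CPM in liver, a log2 fold change of 11.43 ± 0.34. For both, all skins lay above all libraries of the other tissue. Hrnr, the related gene of hornerin, had 72.8, 595 and 3906 CPM in skin and 2.54 ± 0.918 CPM in kidney.

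Several envelope genes were nearly absent elsewhere, so their fold is known poorly. Lce1a2, a late cornified envelope gene, had 4.42, 12.7 and 30.7 CPM in skin and no count in any library of the other 8 tissues, which makes it at least 407-fold higher in skin at a floor of 3 counts over a group. Kprp, a proline-rich envelope protein gene, had 1 count in the gonadal fat libraries together, a ratio of 8075 (95% exact Poisson counting interval 1449 to 318949) for skin over gonadal fat. The same kind of ratio was 2910 (522 to 114956) for Lce1m and 2731 (490 to 107874) for Lce1a1. It was 1799 (498 to 14859) for Lce1c, which had 2 counts in heart, and 1601 (443 to 13217) for Crct1, a neighbouring cysteine-rich gene. The Lce1 genes are close copies of each other, and reads may have been split among them, so the level of any single copy is uncertain. Casp14, the caspase of terminal differentiation, had 4.32, 12.6 and 21.3 CPM in skin and 1 count in subscapular fat, a ratio of 1538 (276 to 60751). The intervals cover counting error only.

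Enzymes that build or shed the envelope spanned a wide range of margins. Tgm1, a transglutaminase that crosslinks the envelope, had 20.7 ± 12.4 CPM in skin and 4.05 ± 1.05 CPM in spleen, a log2 fold change of 2.08 ± 0.26, and Tgm3 had a smallest value of 5.65 ± 0.15, against bone marrow. Klk7, a protease of corneocyte shedding, had a smallest value of 8.61 ± 0.28, its inhibitor Spink5 of 5.83 ± 0.32, and Cdsn, the corneodesmosome protein, of 3.45 ± 0.32, against gonadal fat. Asprv1, a protease that processes filaggrin, had 121 ± 89.3 CPM in skin and 2.86 ± 1.12 CPM in bone marrow, a log2 fold change of 5.15 ± 0.35.

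Among the genes tested, skin genes lay close together at a few places in the genome, in mm10 coordinates. On chromosome 3, between positions 92080271 and 93564643, 12 of 15 genes tested were skin genes (80%), among them Lor, Flg, Flg2, Hrnr, Kprp, Crct1 and 4 Lce1 genes. This is the epidermal differentiation complex. On chromosome 15, between 100038664 and 101954287, 9 of 18 were skin genes (50%), 7 of them type II keratins. Genes nearly absent elsewhere passed the low count filter through their level in skin, so these 2 shares support nothing by themselves. Over the autosomes and the X chromosome the share lay between 7.09% and 13.6%, and none of the 15 mitochondrial and 2 Y-linked genes tested was a skin gene.

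The start regions of 3 of these genes are printed to show which short elements lie close to the start. Each is the 100 bases before the RefSeq start (GRCm38.p6), read on the gene's strand, with the TATA element TATAAA and the AP-1 element TGANTCA in capitals. Lor is at chr3:92083143-92083242 (minus strand), Flg2 at chr3:93197173-93197272 (plus strand) and Krt10 at chr11:99389365-99389464 (minus strand).
Lor: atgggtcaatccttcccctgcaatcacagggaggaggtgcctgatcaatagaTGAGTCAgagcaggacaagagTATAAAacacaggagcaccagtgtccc
Flg2: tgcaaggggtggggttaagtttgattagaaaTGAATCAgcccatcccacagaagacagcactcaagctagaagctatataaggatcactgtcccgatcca
Krt10: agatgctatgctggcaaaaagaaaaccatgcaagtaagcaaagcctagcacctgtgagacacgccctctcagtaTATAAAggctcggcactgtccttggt
Lor holds both elements, at -48 and -27 from the start, Flg2 the AP-1 element at -69 and Krt10 the TATA element at -26. Only the exact letters TATAAA were searched, so near matches, such as tatataag in the Flg2 sequence above, are not marked or counted. Searched on both strands of the RefSeq promoters (250 bases before to 50 after the start), TATAAA occurred in 18 of the 45 cornified envelope genes with an entry (40%), against 14.2% of all 27025 promoters. TGANTCA occurred in 14 of the 45 (31.1%), against 7.93% of all promoters. Of the 25 genes with an official symbol farthest above the other tissues, 18 had an entry, and 4 held TATAAA (22.2%) and 3 held TGANTCA (16.7%). Many envelope genes are copies of each other and share sequence, and a match is a description of letters, not a binding site.

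Desmosomes are the junctions that rivet keratinocytes together. Of 13 tested members 12 were skin genes (against 10.6% of all genes), with a median smallest log2 fold change of 4.80. Dsg1a, a desmosomal cadherin of the upper layers, had 109, 206 and 670 CPM in skin and 0.249 ± 0.264 CPM in gonadal fat, a log2 fold change of 10.01 ± 0.39. Dsc1, another, had 15.5, 65.1 and 333 CPM in skin and 3 counts in subscapular fat, a ratio of 5451 (1865 to 26432). The cadherins of the lower layers, Dsg3 (7.09 ± 0.35) and Dsc3 (6.25 ± 0.17), and the plaque protein Pkp1 (8.50 ± 0.68) were also far above other tissues. Members that other tissues use were closer: the linker Dsp had 845 ± 341 CPM in skin and 251 ± 57.8 CPM in heart, 1.79 ± 0.19 on the log2 scale, and the plaque protein Jup was 2.63 ± 0.19 above lung. The tested member that was not a skin gene was Dsg2, the cadherin of simple epithelia and heart, with 5.54 ± 1.29 CPM in skin and 27.6 ± 5.13 CPM in liver, a log2 fold change of -2.18 ± 0.11. Without the filter 13 of 17 members were called, in a fit that called 5.2% of all genes. Pkp2, Dsc2 and Dsg1c were not among them. Pkp2, a plaque protein of heart, had 0.45 ± 0.362 CPM in skin and 22.8 ± 5.4 CPM in heart.

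Genes of the epidermal lipid barrier were split. Of 8 tested, 5 were skin genes (against 10.6% of all genes). Without the filter 13 of 18 were (against 5.2%). Elovl4, which makes very long chain fatty acids, had 23.6, 44.9 and 82.1 CPM in skin and 0.231 ± 0.286 CPM in subscapular fat, a log2 fold change of 7.88 ± 0.48. The lipase gene Lipm (5.16 ± 0.16), the lipoxygenase gene Aloxe3 (4.91 ± 0.23) and Abca12, the lipid transporter of lamellar granules (4.22 ± 0.16), came next by smallest log2 fold change. The members that were not skin genes act in lipid turnover of many cells: Ugcg at -0.37 ± 0.19 against spleen (adjusted p = 0.1, edgeR quasi-likelihood), Smpd1 at -1.27 ± 0.26 against heart and Abhd5 at -0.22 ± 0.11 against bone marrow (adjusted p = 0.0823, edgeR quasi-likelihood).

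**Figure D3:**
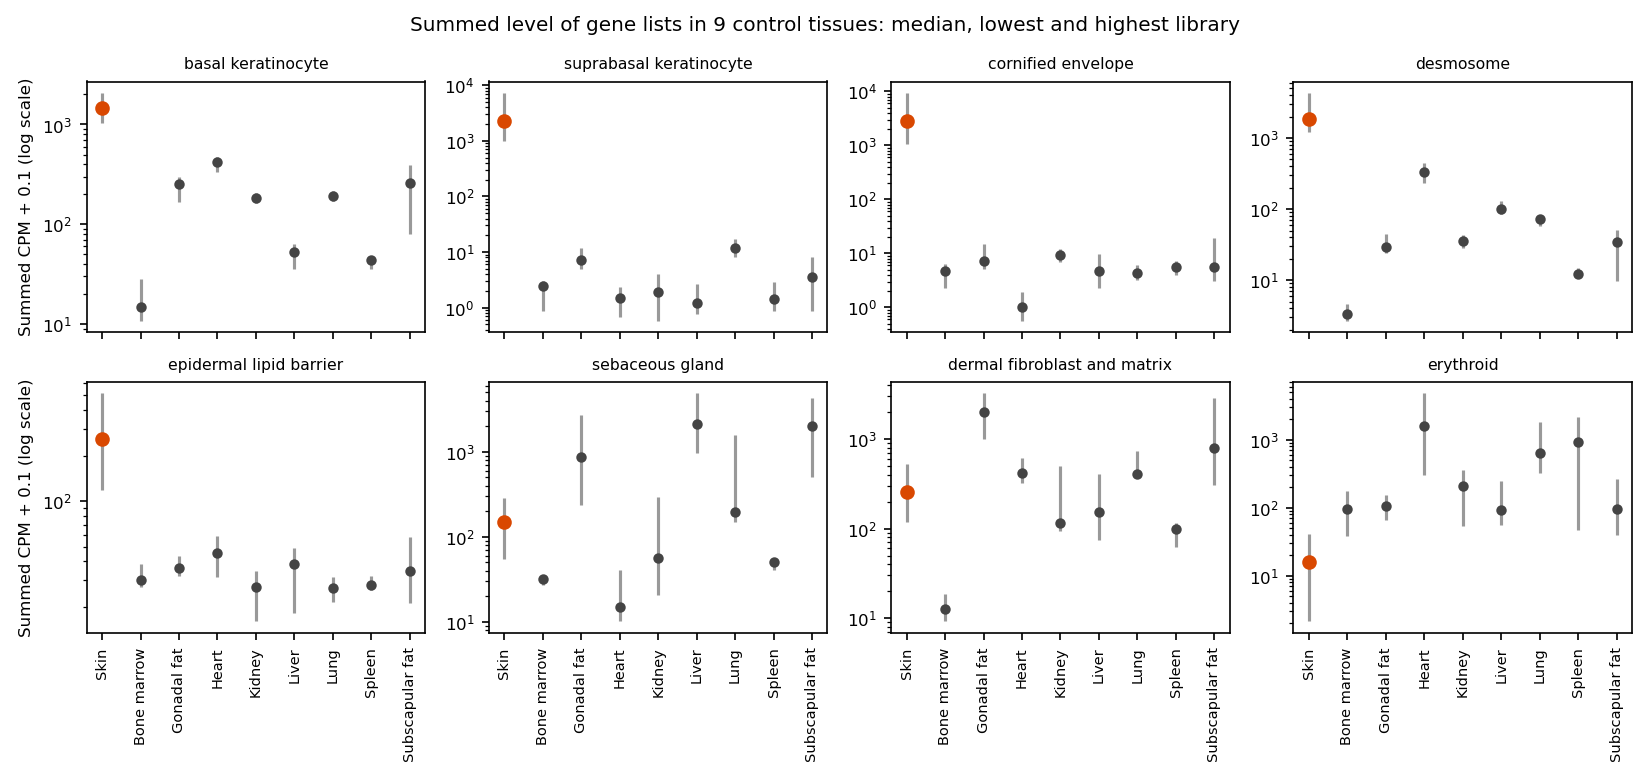
Summed CPM plus 0.1 (log scale) of 8 gene lists in control skin (orange) and 8 other control tissues (grey); points are medians over 11 or 12 libraries and lines run from the lowest to the highest library. Suprabasal genes sum to a median of 2253 CPM in skin and to 11.7 CPM or less elsewhere, while the erythroid list is lowest in skin, with a median of 15.5 CPM.

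Transcription factors of the epidermis were high in skin at modest levels. Of 10 tested, 9 were skin genes (against 10.6% of all genes), with a median smallest log2 fold change of 4.80. The summed level of the list varied little between mice, from 206 to 331 CPM. Trp63, a factor that stratified epithelia need to form, had 40.7, 49.7 and 63.6 CPM in skin and 1.91 ± 1.71 CPM in subscapular fat, a log2 fold change of 5.28 ± 0.48. Pou2f3 (7.88 ± 0.29), Grhl3, a factor of barrier formation (6.64 ± 0.23), and the AP-2 genes Tfap2c (5.10 ± 0.57) and Tfap2a (5.03 ± 0.22) were also skin genes. En1, a patterning factor, had 44.4 ± 39.6 CPM in skin and 52.1 ± 23.4 CPM in liver and was not (adjusted p = 0.341, edgeR quasi-likelihood).

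Subscapular fat had the next highest level of Krt1, Krt5, Krt14 and Col17a1, and there the level varied by library. Krt5 ranged from 0 to 5 CPM and Krt14 from 0 to 4.47 CPM over the 12 subscapular fat libraries, with medians of 0 and 0.119 CPM. Fcgbp, which encodes a secreted mucin-like protein, had 12.7, 135 and 244 CPM in skin and 0, 0.55 and 109 CPM in subscapular fat, so the groups overlapped. It was called at 5.43 ± 1.75 (adjusted p = 0.0127, edgeR quasi-likelihood), but at 0.44 in females alone (adjusted p = 0.827), which ends the call.

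Hair follicle genes were read from levels, since most of them did not pass the low count filter. No hair shaft keratin and no keratin-associated protein gene was tested, with mouse 61 or without it. Without the filter 15 of 15 shaft keratins, 55 of 58 keratin-associated protein genes and 13 of 13 inner root sheath and companion layer genes were higher in skin than in all 8 tissues, in a fit that called 5.2% of 31904 genes. The single inner root sheath gene that passed the filter was Gata3, with 13.9 ± 4.75 CPM in skin and 1.96 ± 2.74 CPM in subscapular fat, a log2 fold change of 3.87 ± 0.74. Among 24 regulators of the hair cycle 4 were tested and 1 was a skin gene (against 10.6% of all genes). Without mouse 61, 6 of 9 were called (against 12.2%), and without the filter 12 of 24 (against 5.2%). The skin gene of the main fits was Hr, whose loss in mice gives hairlessness. Hr had 36.5, 51.9 and 79.7 CPM in skin and 5.54 ± 2.72 CPM in subscapular fat (3.55 ± 0.31). The stem cell receptor Lgr6 (0.59 ± 0.29 against heart, adjusted p = 0.0793, edgeR quasi-likelihood), the hedgehog receptor Ptch1 (-1.12 ± 0.18 against lung) and the vitamin D receptor Vdr (-0.79 ± 0.13 against kidney) were not. Lgr6 was called at 0.49 without the filter and at 0.84 without mice 18 and 22, and its sign turned to -0.19 in females.

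Hair genes differed widely between mice. The 15 measured shaft keratins summed to 1371 CPM in the skin of mouse 71, to 327 CPM in mouse 22 and 317 CPM in mouse 18, and to 1.5 to 118 CPM in the other 9. The keratin-associated proteins followed the same order at the top, with 1297 CPM in mouse 71, 303 CPM in mouse 22 and 235 CPM in mouse 18. Tchh, the trichohyalin gene of the inner root sheath, had 617 CPM in mouse 71 and a median of 30.5 CPM. Krt71, an inner root sheath keratin, had 362 CPM in mouse 71 and a median of 13.2 CPM. Krt34, a shaft keratin, had 139 CPM in mouse 71, a median of 3.48 CPM and no count in the skin of mouse 4. The same mouse 71 had the deepest skin library, with 1815492 usable counts. Without mouse 71 the count of skin genes was 836, of which 818 were among the 853.

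Start regions of 3 hair genes are shown because TATAAA was commonest in these lists. They are the 100 bases before the RefSeq start (GRCm38.p6) on the gene's strand, with TATAAA in capitals: Krt71 at chr15:101743098-101743197, Krt34 at chr11:100041555-100041654 and Krtap11-1, which encodes a keratin-associated protein of the shaft, at chr16:89571184-89571283, all on the minus strand.
Krt71: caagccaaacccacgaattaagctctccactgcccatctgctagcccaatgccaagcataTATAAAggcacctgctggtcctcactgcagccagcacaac
Krt34: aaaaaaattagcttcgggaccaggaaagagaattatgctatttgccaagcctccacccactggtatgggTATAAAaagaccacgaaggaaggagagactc
Krtap11-1: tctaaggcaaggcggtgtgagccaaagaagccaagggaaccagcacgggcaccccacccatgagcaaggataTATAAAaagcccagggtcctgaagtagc
The element began at -40 in Krt71, -31 in Krt34 and -28 in Krtap11-1. In the whole promoters it occurred in 42 of 51 keratin-associated protein genes (82.4%), 6 of 9 shaft keratins (66.7%) and 7 of 12 inner root sheath genes (58.3%), against 14.2% of all promoters. The LEF/TCF element CTTTGAA, searched on both strands, occurred in 5.27% of all promoters. It was in 2 of 45 cornified envelope genes (4.44%) and in 0 of the 18 genes farthest above the other tissues. Among the hair lists it was in 5 of the 9 shaft keratins (55.6%), 9 of 51 keratin-associated protein genes (17.6%) and 2 of 12 inner root sheath genes (16.7%). These families also share sequence between copies.

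Summed levels of epidermal gene lists differed between mice as well. Cornified envelope genes summed to 9352 CPM in mouse 11, 8227 CPM in mouse 37, 7402 CPM in mouse 18 and 7120 CPM in mouse 22, and to 1061 to 3750 CPM in the other 8 skins. The same 4 skins had the highest suprabasal sums, 5698 to 7264 CPM against 976 to 3314 CPM in the other 8. They had the lowest sums of the sebaceous gland list, 54.2 to 77.9 CPM against 125 to 285 CPM. That list includes Scd1, a desaturase of many lipid-making cells. Its sum had a median of 2136 CPM in liver against 150 CPM in skin, so it does not measure the gland alone. In the 4 skins the usable depth was 640506 to 1141470 counts, inside the range of the other skins, and 3 of the 4 mice were female. Krt24, a keratin of differentiated cells, had the widest spread of the skin genes, with an SD of 2.14 in log2 CPM and levels of 5.25, 17.7 and 330 CPM. Hrnr (SD 1.77), Fcgbp (1.67), Calml3 (1.59), Dsc1 (1.55), Krt1 (1.41), Cdsn (1.38), Flg (1.34), Dsg1b (1.26) and Kprp (1.25) were the next widest. Fcgbp ran the other way from the rest, and its lowest control level, 12.7 CPM, was in one of these 4 skins. Basal genes spread less, from 1034 to 2072 CPM.

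**Figure D4:**
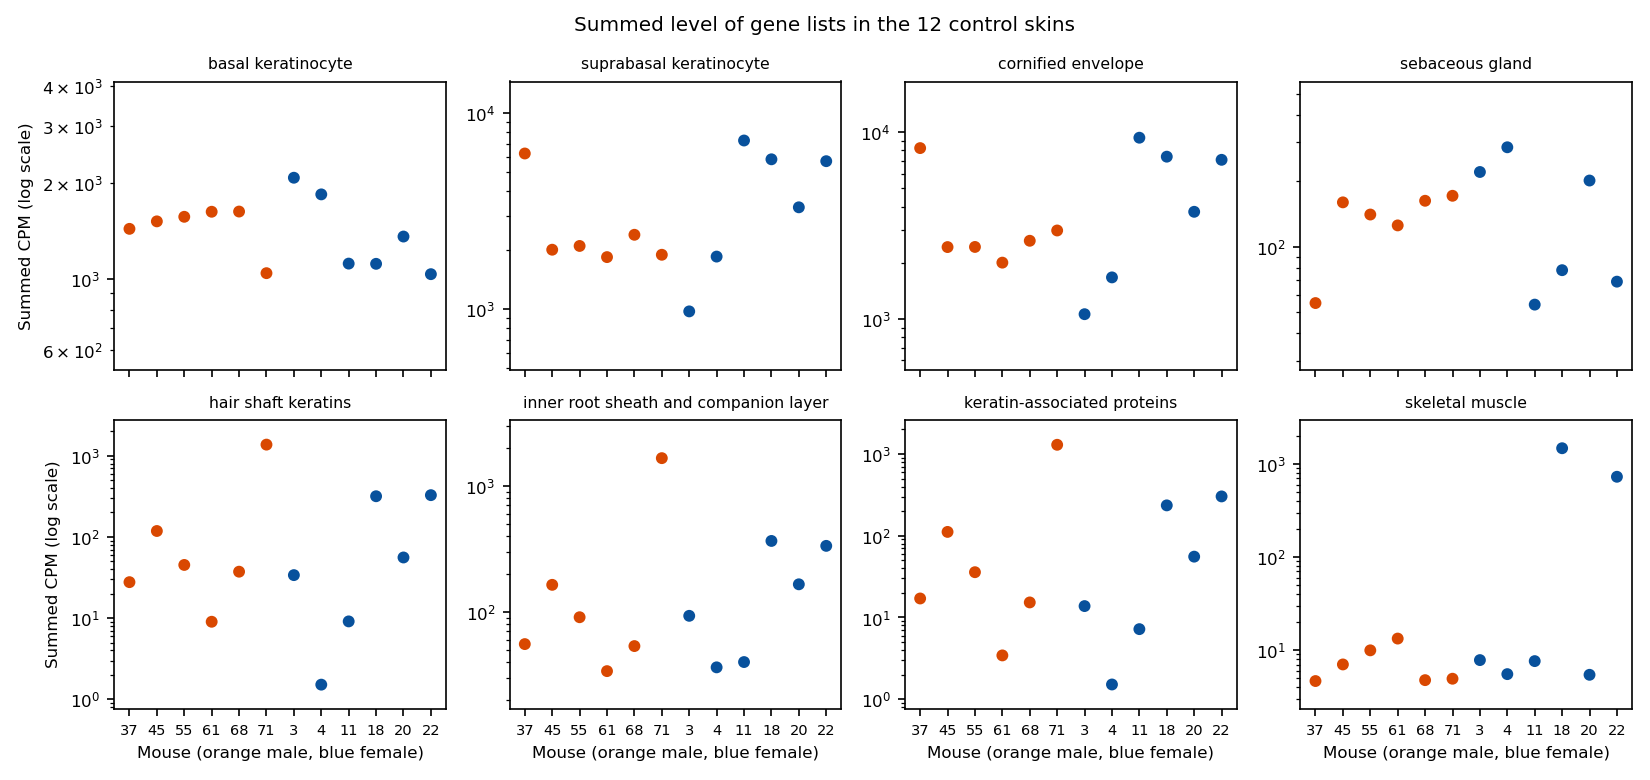
Summed CPM (log scale) of 8 gene lists in each of the 12 control skins, with mice along the x axis (orange male, blue female). Mice 37, 11, 18 and 22 are highest for suprabasal and cornified envelope genes and lowest for the sebaceous gland list, which includes Scd1. Mouse 71 is highest for the 3 hair lists at 1297 to 1657 CPM. Mice 18 and 22 alone exceed 13.3 CPM of skeletal muscle genes.

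Muscle RNA moved with 2 skins. A list of 28 skeletal muscle genes summed to 1471 CPM in mouse 18 and 726 CPM in mouse 22, and to 4.7 to 13.3 CPM in the other 10 skins. Both mice were also among the 4 skins with high cornified envelope sums and the 3 with high hair gene sums, and the part of muscle RNA in those results was not tested. Without both mice 836 skin genes were found, 780 of them among the 853.

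Sebaceous gland genes were mostly untested or shared. Of 4 tested, 2 were skin genes, against 10.6% of all genes. They were Far2, a fatty acyl reductase of wax synthesis (1.26 ± 0.19 against bone marrow), and Krt79 (4.14 ± 0.30 against lung). Krt79 is a keratin of the sebaceous duct and is also in the suprabasal list. Scd1, a desaturase of many lipid-making cells, had 91.2 ± 55.7 CPM in skin and 2518 ± 1212 CPM in liver, and the cholesterol-esterifying enzyme gene Soat1 was lower than in lung, by a log2 fold change of -1.97 ± 0.29. Melanocyte genes were low, summing to 4.4 to 16.3 CPM in skin. The median sum was 5.87 CPM in skin and 4.31 (bone marrow) to 18.1 CPM (heart) in the other tissues. Without the filter 3 of 12 members were called, against 5.2% of all genes. With the filter the only tested member was the melanocortin receptor Mc1r, with 0.53, 1.81 and 12.9 CPM in skin. It did not pass the test against spleen (-0.11 ± 0.51, adjusted p = 0.874, edgeR quasi-likelihood). Its sign turned in males, without mice 18 and 22 and in 1 fit over all tissues.

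Dermal genes stood between those of the other tissues. Of 12 tested fibroblast and matrix genes 2 were skin genes (against 10.6% of all genes), and the list's median smallest log2 fold change was -3.30. Col7a1, the anchoring fibril collagen that keratinocytes also make, had 40.8 ± 18.9 CPM in skin and 2.69 ± 0.709 CPM in spleen, a log2 fold change of 3.85 ± 0.22. Col12a1 was 0.53 ± 0.13 above lung (adjusted p = 0.00169, edgeR quasi-likelihood), a call that was lost in males (0.47, adjusted p = 0.186) and in 1 fit over all tissues (0.47, adjusted p = 0.0822). The fibrillar collagens were lower than in gonadal fat: Col1a1 had 7.31, 33.8 and 113 CPM in skin and 35.9, 105 and 206 CPM in gonadal fat, a log2 fold change of -1.56 ± 0.26, and Col3a1 one of -3.73 ± 0.26. All 12 tested genes were higher in skin than in bone marrow, 10 were higher than in spleen, 8 than in kidney and 7 than in liver, while 10 were lower than in gonadal fat, 8 than in subscapular fat and 7 than in heart. The whole list summed to a median of 255 CPM in skin, against 1995 CPM in gonadal fat, 421 CPM in heart, 116 CPM in kidney, 98.0 CPM in spleen and 12.7 CPM in bone marrow. Adipocyte genes summed to 8.6 to 22.1 CPM in skin, and none of the 3 tested was a skin gene. Neither of the 2 tested Langerhans cell genes was one. Without mouse 61, 2 of 4 were called (against 12.2% of all genes), and without the filter 2 of 6 (against 5.2%). No mast cell gene was tested. Of the 3 tested proliferation genes none was a skin gene, and all 3 were lower than in bone marrow and higher than in heart, kidney, liver, lung and subscapular fat, with 1 also higher than in gonadal fat.

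Lower in skin than in every other tissue were 313 genes, 109 of them at least 2-fold. All 5 tested erythroid genes were lower than in all 8 tissues, in a background of 3.88% of genes. The haemoglobin gene Hbb-bs had 0.206, 7.39 and 19.7 CPM in skin and 117, 749 and 2330 CPM in heart, and its log2 fold change nearest 0 was -2.70 ± 0.44, against liver. Hba-a1 had -2.73 ± 0.41 against gonadal fat. Globin copies share reads, and the amount of blood each tissue held was not measured. The interferon-inducible gene Ifi203 was farthest below all tissues, with a highest level of 0.859 CPM in skin and 30.2 ± 5.28 CPM in spleen, and its value nearest 0 was -3.38 ± 0.27, against liver. Samd9l, another interferon-inducible gene, had -3.03 ± 0.37. The lysosomal enzyme genes Hexa (-2.62 ± 0.25, against kidney) and Ctsz (-2.40 ± 0.23, against heart) and the leukocyte adhesion receptor gene Adgre5 (-2.47 ± 0.18, against liver) followed. These levels rest on few counts in skin, with medians below 1 CPM for Ifi203, Samd9l, Hexa, Ctsz and Adgre5.

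The same comparison in aPAPPA mice called most of the same genes. There 1016 of 8168 genes (12.4%) were higher in skin than in all 8 tissues. Of the 853 skin genes of control mice 845 were tested, and 722 of these (85.4%) were called again; 840 had a positive log2 fold change in all 8 tissues. All 190 genes that were at least 4-fold higher in control skin were called in aPAPPA mice. Of 269 tested genes that were lower than in all 8 tissues in control mice, 201 were lower again. Krt1 had 142, 211 and 1709 CPM and Flg 300.3, 429 and 3310 CPM over the 9 aPAPPA skins, inside the control range of Krt1 and close to that of Flg. With 3 aPAPPA libraries of low tissue markers put back, 580 of the skin genes were tested and 397 called. One of these, the skin of mouse 36, had 33377 usable counts and 8.92 CPM of Krt5, against 189 to 360 CPM in the other aPAPPA skins.

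**Figure D5:**
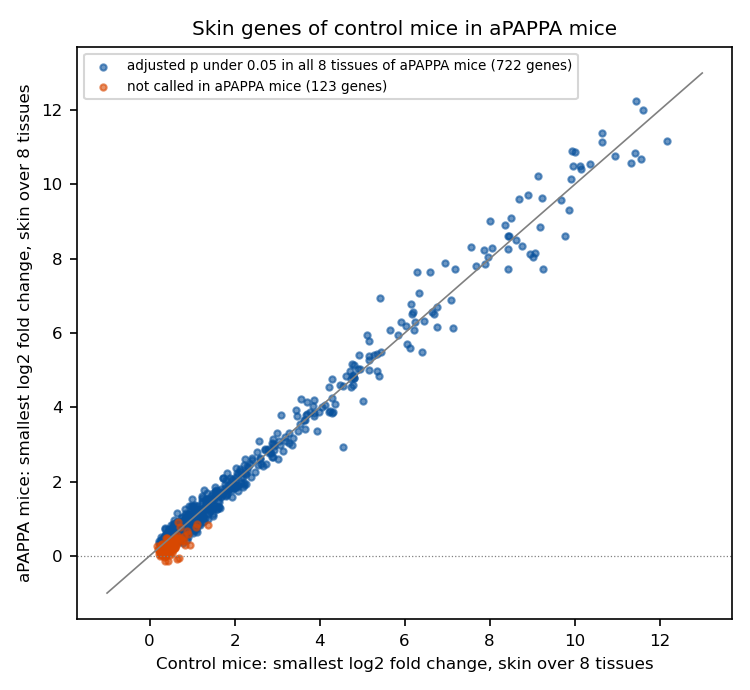
Smallest log2 fold change of skin over the 8 other tissues for 845 skin genes of control mice, in control mice (x axis) and aPAPPA mice (y axis), with the line of equal values. The 722 genes called in aPAPPA mice (blue) lie along the line over the whole range. The 123 not called (orange) were all less than 4-fold higher in control mice. They include Ybx3, at 1.37 in control and 0.83 in aPAPPA mice, and Fabp5, at 1.11 and 0.86.

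Set directly against each other, aPAPPA and control skin had none of 10378 genes called (0%) in edgeR and 0 in DESeq2, while 396 genes had an unadjusted p under 0.05. Of the 853 skin genes 32 (3.75%) had such a p, against 3.82% of all genes, and their median log2 fold change was 0.01, against -0.02 over all genes. The smallest p among genes higher in aPAPPA skin belonged to Scarna10, with 44.5 CPM in aPAPPA and 34.9 CPM in control skin on average, and its adjusted p was 0.99996 (edgeR quasi-likelihood). Col6a2, a collagen VI chain, had 2.14 CPM in aPAPPA and 3.62 CPM in control skin and the same adjusted p. Summed cornified envelope genes were at 1438, 3246 and 7240 CPM in aPAPPA skins and 1061, 2801 and 9352 CPM in control skins, and shaft keratins at 3.24, 45.6 and 113 CPM in aPAPPA skins and 1.5, 41.2 and 1371 CPM in control skins. Of 11 tested shaft keratins 3 had an unadjusted p under 0.05 and 0 were called, with a median log2 fold change of -1.60. Of 21 tested dermal fibroblast and matrix genes 9 had such a p and 0 were called, with a median of -0.43. The whole dermal list of 25 genes summed to 128, 217 and 248 CPM in aPAPPA skins and 119, 255 and 523 CPM in control skins, the last in mouse 71. In simulated data with the same spread for all genes, the test recovered 100% of genes changed 4-fold and 49.3% of those changed 2-fold. Rates for real genes depend on their own spread.

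Male and female control skins differed at 10 of 9749 genes (0.103%), 7 higher in males and 3 higher in females, and none of them was a skin gene. Ddx3y, on the Y chromosome, had a median of 8.18 CPM in males and no count in females, and Uty one of 7.74 CPM in males and no count in females. Xist, the RNA of X inactivation, had at most 0.222 CPM in males and 232.8 to 362 CPM in females. The small nucleolar RNA gene Snora68 was higher in males by 1.72 ± 0.26 on the log2 scale (adjusted p = 0.0138, edgeR quasi-likelihood). DESeq2 called 24 genes, and 357 genes had an unadjusted p under 0.05 in edgeR, 18 of them among the 853 skin genes. In simulated data with the same spread for all genes, 6 males and 6 females, the test recovered 96.9% of 4-fold and 14.9% of 2-fold changes. Many 2-fold differences may therefore go uncalled, though rates for real genes depend on their own spread.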

How the data were processed

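RNA was extracted from whole tissue and made into stranded total RNA libraries from 100 ng with 12 PCR cycles, per the labels' protocols. The submitters' processing notes name FastQC 0.11.5, Salmon and mm10. The authors deposited whole-number counts per gene; how Salmon estimates became whole numbers is not given in the sources used here. Each tissue pair was fitted with edgeR 4.0.16 in R 4.3.3 (quasi-likelihood F-test, TMM, filterByExpr with a minimum count of 10, mouse as block, Benjamini-Hochberg adjustment over the genes tested, threshold 0.05, two-sided). Mice pair tissues because the same animal gave all of them; the mean correlation of same-mouse deviations was -0.03 to 0.08. CPM uses TMM-scaled totals over 198 libraries. Sex was compared without, and treatment with sex as, a covariate; skin of mouse 36, heart of mouse 56 and gonadal fat of mouse 58 were left out of aPAPPA fits for low tissue markers. Fits were tested on simulated data. The abundant features are Lars2, Gm42418, Mir6236, Rn7s1, 2 mitochondrial ribosomal RNAs and 3 transcripts without symbols. Gene positions are GENCODE on mm10. The 24 gene lists, some of which share genes, the members and the naming rule were chosen with earlier results of these data known. By that rule, the 25 skin genes with the largest smallest log2 fold change, an official symbol and a mean of at least 1 CPM (Gm, Rik and clone names passed over), the 10 lowest genes with a mean of at least 1 CPM in each other tissue, the 10 widest between mice and up to 4 members a list were named, with list members that failed, 1 of which is not reported here; Col1a1, Col3a1 and genes that describe single mice were added after their values were seen. P-values measure spread between mice.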

Additional observations from a re-analysis of the deposited data

Results flagged for a closer look

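In groups of 6 to 9 skins, the highest or lowest library was set against the gap to its nearest neighbour for the summed CPM of 14 gene lists in 3 groups (male control, female control and aPAPPA skins). Of 42 such groups 11 had a library far from the others. The cut-off gives about 1 in 20 by chance for independent, normally distributed values. Several of these sums were skewed, and the lists come from the same mice, so the 11 cannot be set against that rate. The causes of the 11 were not tested.

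Mouse 71 accounted for 5 of them among male control skins. It had 1371 CPM of hair shaft keratins, against 118 CPM in the next male, 1657 CPM of inner root sheath and companion layer genes, against 164 CPM, and 1297 CPM of keratin-associated proteins, against 111 CPM. It also had the highest dermal fibroblast and matrix sum, 523 CPM against 272 CPM, and the lowest basal keratinocyte sum, 1042 CPM against 1434 CPM.

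Mouse 37 was the highest male for 3 lists of the upper epidermis: 6237 CPM of suprabasal genes against 2400 CPM in the next male, 8227 CPM of cornified envelope genes against 2979 CPM, and 3568 CPM of desmosome genes against 2068 CPM. Females 11, 18 and 22 reached similar sums, so none of them stood alone among the females.

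Mouse 61, the shallowest control skin, had the highest sum of epidermal transcription factors among males, 331 CPM against 267 CPM. Among females, mouse 11 had the lowest dermal sum, 119 CPM against 235 CPM. Among aPAPPA skins, mouse 9 had 1384 CPM of skeletal muscle genes, against 646 CPM in the next.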

How the results depend on the processing

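The alternatives were DESeq2 1.42.0, RLE scaling, no low count filter, no mouse block, abundant features removed, left-out libraries put back, 1 sex alone, 1 fit over all 9 tissues and other thresholds; fits without mouse 61, without mouse 71 and without mice 18 and 22 were chosen after seeing the data. With no low count filter, genes higher in skin numbered 7617 against bone marrow, 6499 against heart, 6186 against kidney, 6495 against liver and 5586 against spleen; skin genes numbered 1660 (674 shared with the 853) and genes lower than in all 8 tissues 702. In 1 fit over all 9 tissues the counts were 6644 against bone marrow, 6125 against heart, 6218 against liver, 5117 against spleen, 5371 against subscapular fat, 1290 skin genes and 855 lower genes. More genes were tested in both (31904 and 17937, against 8059). At least 2-fold higher were 346 skin genes and at least 4-fold 190; females alone gave 199 lower genes. Putting 3 libraries back left 397 skin genes called in aPAPPA mice, and DESeq2 called 24 genes between the sexes. Without the mouse block, which drops the pairing, 893 skin genes were found, 842 of them shared, and no count moved by over 1.5 times. Removing abundant features gave 1139 skin genes, 851 of them shared. Signs turned for Lama3 (-0.024 with DESeq2, -0.024 with RLE scaling, -0.065 with no filter, -0.18 in females, -0.058 without mouse 61), Lgr6 (-0.19 in females), En1 (0.14 in males) and Mc1r (0.42 in males, 0.17 without mice 18 and 22, 0.0079 in 1 fit over all tissues); the causes were not tested. Snora78, higher in males, lost its call with no filter (1.11, adjusted p = 0.059). Of 94 named results 87 kept direction and call under every alternative run, including all 25 top genes. Depth limits small differences and genes of low count.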
